A study of Homo sapiens with 9 samples.

Results

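The genes described here are 10 human genes read by symbol from the FPKM table (FPKM are fragment counts divided by transcript length and by the size of the library, so that levels can be compared between genes of unequal length). All 10 symbols were found among the 22295 entries of the table, of which 2363 were assembled loci without a gene symbol. All 10 entered the fit over 15551 entries. Those entries include assembled loci, and shares of all genes below are shares of these entries. They are 8 genes linked to interferon, namely PARP9, PARP10, PARP12, PARP14, DTX3L, PML, SP100 and SP110, and a pair that served as the constitutive contrast, PARP1 and PARP2. The members were given by name, with earlier results of these data known, and the rule itself uses no measured value.

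RNA was taken from U251 cells, an established human glioblastoma line, infected with lentivirus that carried a short hairpin RNA. The 9 libraries form 3 groups of 3. In sh-Luci-3d, called the control below, the hairpin was aimed at luciferase and cells were collected 3 days post infection (dpi). In the other two groups the hairpin was aimed at PTBP1, an RNA-binding splicing repressor, and cells were collected at 3 dpi (sh-Ptbp1-3d, the 3 dpi knockdown) or at 7 dpi (sh-Ptbp1-7d, the 7 dpi knockdown). Per the study's methods, the viral vectors carried an M-cherry marker and cells stood in neuronal induction medium with N2, B27, forskolin and dorsomorphin from 2 days after infection. With no sh-Luci library at 7 dpi, knockdown, time after infection and time in that medium cannot be told apart in a comparison with sh-Ptbp1-7d. The labels do not say whether the 3 libraries of a group came from separate cultures, so p-values measure the spread between these libraries, which may be technical.

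ADP-ribosyltransferases of the PARP family use NAD+ to attach ADP-ribose to proteins and nucleic acids. PARP1 and PARP2 are switched on by broken DNA, build long chains and help recruit the repair machinery, whereas PARP10, PARP12 and PARP14 attach single units. PARP9 carries macrodomains that read ADP-ribose and works in a complex with the ubiquitin ligase DTX3L. PML, SP100 and SP110 belong to PML nuclear bodies, spherical nuclear structures built on a PML scaffold that hold many SUMO-modified proteins and take part in defence against viruses. The transcription of these 8 genes is known to respond to interferon, mainly through the factor ISGF3, which binds the interferon-stimulated response element (ISRE).

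PARP9 and DTX3L face away from each other on chromosome 3, and their GENCODE v29 gene bodies (GRCh38, chr3:122527924-122564577 on the minus strand and chr3:122564238-122575203 on the plus strand) overlap by 340 bases. PARP14 lies on the same chromosome at chr3:122680618-122730840. SP110 and SP100 are on chromosome 2, at chr2:230167293-230225729 and chr2:230415942-230544090. PARP12 is at chr7:140023744-140063721, PML at chr15:73994673-74047812, PARP1 at chr1:226360691-226408079 and PARP2 at chr14:20343582-20357905. SP110 overlaps SP140 on the opposite strand by 22620 bases, but SP140 had a mean of only 0.390 FPKM. Whether the counting used strand is not given in the sources used here, so reads of genes on opposite strands cannot be told apart where they overlap. SP100, SP110 and SP140L are related in sequence, and how reads that match more than one gene were counted is likewise not given.

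RefSeq start regions, each 300 bases long (250 before and 50 after a start, GRCh38.p14), were found for 8 of the 10 members in 11 windows, and those of PML and PARP10 were not analysed here. The ISRE core, searched as GAAANNGAAA on both strands, is in 3.57% of all 35116 windows. Among the members it is in a window of PARP9, DTX3L, PARP14 and PARP12. The shorter core shared by IRF sites, AANNGAAA, is in 22.8% of all windows and the interferon gamma-activated element GAS, searched as TTCNNNGAA, in 7.66%. Each ISRE match of that spacing also contains a match to AANNGAAA. The stretches of 30 bases that hold these letters are printed in the direction of each gene, because the 4 members with the ISRE letters have them in only 3 places. Capitals mark the ISRE core in the first 4, with the GAS letters as well in PARP14.
PARP9 (chr3:122564322-122564351, minus strand): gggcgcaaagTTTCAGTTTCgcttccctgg
DTX3L (chr3:122564322-122564351, plus strand): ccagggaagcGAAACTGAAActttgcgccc
PARP14 (chr3:122680794-122680823, plus strand): gagttTTCCAGGAAacGAAAGCGAAAgagt
PARP12 (chr7:140062942-140062971, minus strand): ccggggccgcTTTCGGTTTCgtttcccgcc

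The first 2 lines are one and the same stretch of chromosome 3 read on its 2 strands. The nearest starts of PARP9 and DTX3L are 38 bases apart and point away from each other, and the single ISRE match lies at chr3:122564332-122564341, from 41 to 32 bases before the PARP9 start and from 6 bases before to 3 bases after the DTX3L start. The second PARP9 window, around a start further upstream, held none of the 3 motifs. In PARP14 the GAS letters stand from 40 to 32 bases before the start and the ISRE letters from 29 to 20 bases before it. In PARP12 the ISRE match ends at the base before the start.

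The nuclear body genes SP110 and SP100 had no GAAANNGAAA match in their windows but did have AANNGAAA, in capitals here, near both SP110 starts and near one of the 2 SP100 starts.
SP110, first start (chr2:230225722-230225751, minus strand): agtcaaagaggAAAAGAAAAGTGAAAttgc
SP110, second start (chr2:230220010-230220039, minus strand): aaacTTTCACTTTTCTTTTctcggaagccc
SP100 (chr2:230416131-230416160, plus strand): aaatacTTTCACTTctcttttccccatttg

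The stretch at the second SP110 start also holds a GAS match, from 38 to 30 bases before that start, which is not capitalised as such and shares its first 2 bases with the capitals. Read on the strand that spells GAAA, the capitals at both SP110 starts are the same run of 15 bases, in which the 2 GAAA repeats are 3 bases apart rather than the 2 of the searched core. The aligned run of SP100 differs from it at 1 position, A7G, counted from 1 at the 5′ end of that strand with the SP110 base first.

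PARP1 and PARP2 had neither GAAANNGAAA nor AANNGAAA in their windows. PARP2 had a GAS match from 154 to 146 bases before its start, in capitals here, and PARP1 had none of the 3 motifs, so the 30 bases before its start are shown.
PARP1 (chr1:226408094-226408123, minus strand): gttccgtgggcgttcccgcggccaggcatc
PARP2 (chr14:20343470-20343499, plus strand): tttatggtgatTTCCCAGAAcacatagcga

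These matches describe letters only, and binding was not measured. For scale, 440 tested genes had GAAANNGAAA in a window. Of these, 23.4% were called higher in the 7 dpi knockdown than in the 3 dpi knockdown. Of the 10344 tested genes with a window and without it, 7.23% were called so. For AANNGAAA the shares were 12.4% of 2367 genes with it and 6.63% of 8417 without it. For the GAS letters they were 11.5% of 954 and 7.54% of 9830. Members with a window are counted in these shares, and a role of the letters was not tested.

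The targeted gene followed its labels. PTBP1 stood at 111, 112 and 124 FPKM in the control, at 66.2, 64.4 and 61.0 FPKM in the 3 dpi knockdown and at 49.7, 50.7 and 50.96 FPKM in the 7 dpi knockdown, with no overlap between the groups. Its log2 fold change was -0.85 at 3 dpi (SE 0.073, adjusted p = 0.00314, limma over all genes) and -1.19 at 7 dpi against the control (adjusted p = 3.77e-07). With the 2 groups of 3 dpi fitted alone, the adjusted p of PTBP1 was 0.0821 by limma, above the limit of 0.05. VIM, CD44, NES, SOX2 and SOX9 were each above 1 FPKM in every group, but 5 of the 10 markers checked for the line were not, and the astrocyte genes GFAP, S100B, AQP4, ALDH1L1 and CHI3L1 were below 1 FPKM in the mean of each group. Summed over those 10 markers, the level was 4460 to 4580 FPKM in the control, 4570 to 4880 FPKM in the 3 dpi knockdown and 1390 to 1510 FPKM in the 7 dpi knockdown, most of it VIM. The 10 neuronal markers summed to between 484 and 521, between 555 and 569 and between 251 and 259 FPKM in the same order. Most of that sum was TUBB3 and NEFL (means of 316.9 and 216.2 FPKM in the 3 dpi knockdown and 118.2 and 92.7 FPKM at 7 dpi), and the list did not move one way: between the times 3 of the 9 tested markers were called lower, whereas MAP2 was higher by FDR alone, at 20.3 and then 38.9 FPKM. The 16 blood and immune markers summed to between 10.8 and 11.9, between 11.4 and 11.7 and between 16.7 and 19.5 FPKM. CD68, a lysosomal protein not limited to macrophages, was the only one above 1 FPKM in the mean of a group. CD14 reached 1.11 FPKM at most, in the 7 dpi knockdown, while AIF1, CD3E, MS4A1 and PPBP were listed at 0 in every library. The part of these shifts in the results was not tested.

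**Figure D1:**
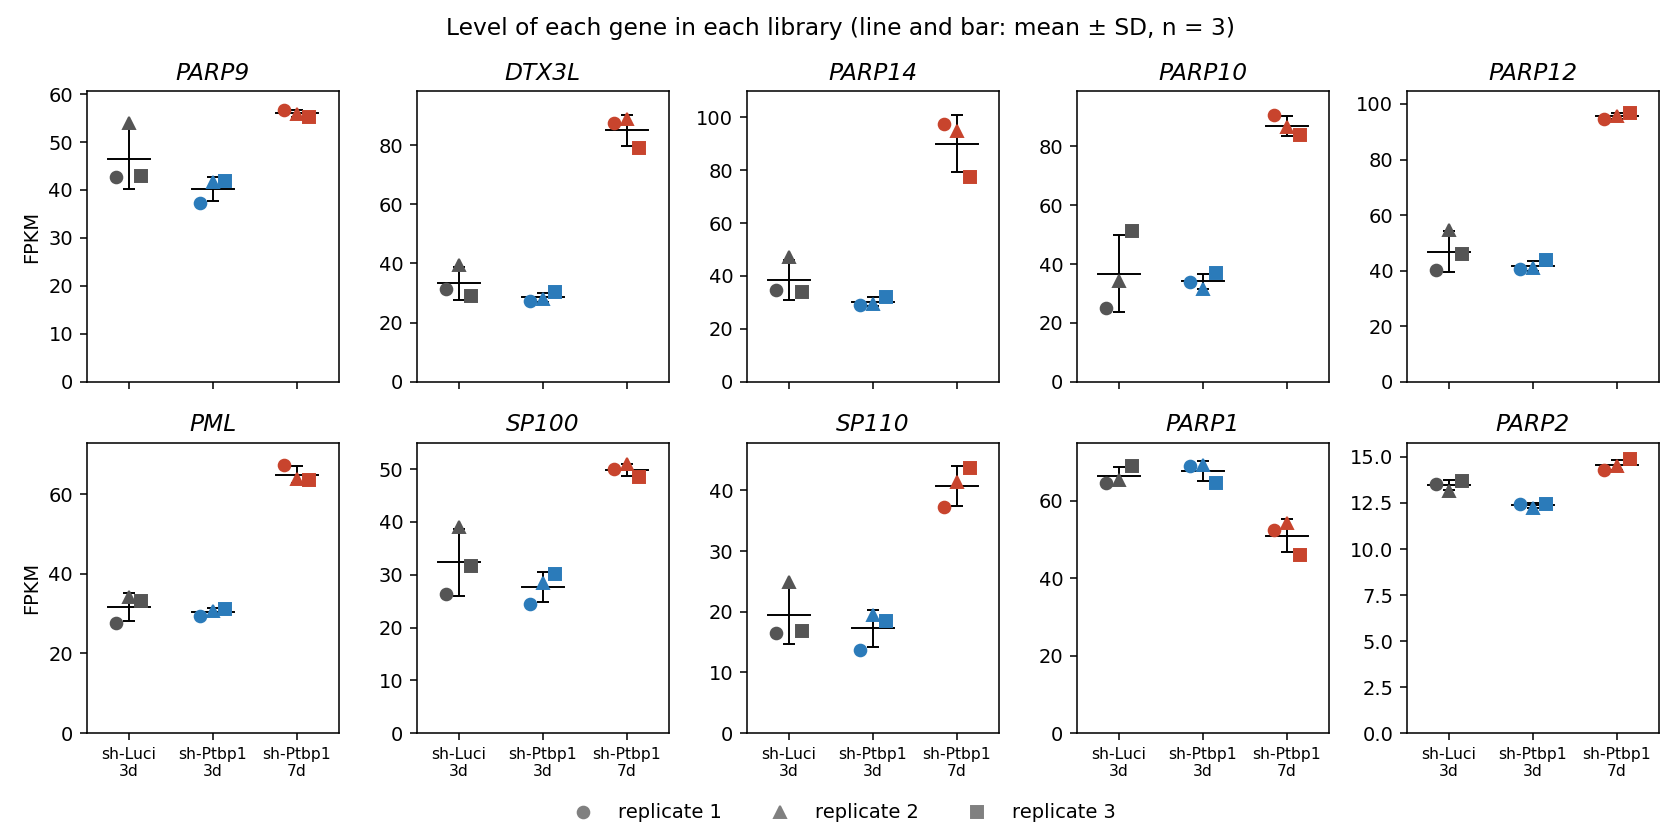
FPKM of each of the 10 genes (one panel each, vertical axis from 0) in the 9 libraries, with groups on the horizontal axis, one symbol per replicate and the mean ± SD of 3 libraries in black. In the first 8 panels the 3 libraries of the 7 dpi knockdown lie above all libraries of both other groups; in PARP1 they lie below them, and PARP2 spans only 12.2 to 14.9 FPKM.

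At 3 dpi none of the 10 genes differed between the 3 dpi knockdown and the control in the limma fit used here. The thresholds were the study's (fold change above 2 and FDR below 0.05), but the fit was not. By its own method the study reported many more changed genes in this comparison, so a missing call here is not the study's own result. Of all 15551 genes, 0.0129% were called higher by these thresholds, 2 genes, and 0.0193% by FDR alone. The count of calls over all genes in either direction, also 2, depended on single libraries: it was 57 without sh-Luci-3d replicate 3, 1 without sh-Luci-3d replicate 2 and 0 without sh-Luci-3d replicate 1 or without any one library of the 3 dpi knockdown, with none of the 8 interferon-linked genes called higher in any of these. At an unadjusted p under 0.05, 1 of the 8 interferon-linked genes passed, PARP14, against 7.24% of all genes tested.

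PARP14, a macrodomain protein that transfers single ADP-ribose units, had 34.7, 47.2 and 33.8 FPKM in the control and 29.02, 29.4 and 32.2 FPKM in the 3 dpi knockdown. The groups did not overlap, but the difference was small (log2 fold change -0.34, 95% interval -0.63 to -0.042, limma adjusted p = 0.623). PARP9 did not overlap either, with 42.8, 53.9 and 42.9 FPKM in the control and 37.3, 41.6 and 41.8 FPKM in the 3 dpi knockdown, and its adjusted p was 0.715 (log2 fold change -0.20, limma). These were the only 2 of the 8 whose groups did not overlap, both lower, against 4.93% of all genes lower and 5.86% higher. PARP2 of the constitutive pair was also lower without overlap, at 13.5, 13.2 and 13.7 and then 12.5, 12.2 and 12.4 FPKM. Its log2 fold change was -0.12 (limma adjusted p = 0.762). All 8 log2 fold changes were below 0 (median -0.18, range -0.34 to -0.050), where 47.5% of all genes were below 0 and the median of all genes was 0.00996. All 8 intervals (95%) lay within a fold of 2 in either direction, and the widest, that of PARP10, ran from -0.49 to 0.39. The differences were smaller in 7 of the 8 without sh-Luci-3d replicate 2, at -0.081 in DTX3L, -0.092 in PARP9, -0.18 in PARP14, -0.064 in SP100 and -0.042 in PARP12, with PML (0.0046) and SP110 (0.031) above 0. PARP10 was above 0 without sh-Luci-3d replicate 3 (0.22) or sh-Ptbp1-3d replicate 2 (0.0043).

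The spread among the control libraries was shared by most members. Within the control, replicate 2 was the highest library for 7 of the 8 genes and replicate 1 the lowest for 6. Some ranks were near ties, as PARP9 had 42.81 and 42.86 FPKM in control replicates 1 and 3. Such ranks were not counted over all genes, so a shift of a whole library was not tested. Within the 3 dpi knockdown, replicate 3 was the highest for 7 and replicate 1 the lowest for 7. PARP10 was the exception in the control, at 25.1, 34.1 and 51.1 FPKM, with its highest value in replicate 3 and a coefficient of variation of 35.9%. For the other 7 that coefficient ran up to 24.1% (SP110), while for PARP1 and PARP2 it was 3.45% and 2.06%.

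Between 3 and 7 dpi under the same hairpin, all 8 interferon-linked genes were higher in the 7 dpi knockdown. The 8 genes passed the FDR of 0.01 (20.3% of all genes did so in that direction) and 6 of them also passed the fold change of 2 (8.31% of all genes). PARP10, PARP12, PARP14, DTX3L, PML and SP110 were past both thresholds, and PARP9 and SP100 rose by less than 2-fold. In each of the 8 genes the lowest 7 dpi library was above the highest 3 dpi library, as in 35.3% of all genes. The median log2 fold change of the 8 was 1.22, against 0.0924 over all genes tested. In bulk RNA a larger share of cells that express a gene cannot be told apart from more RNA per cell.

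DTX3L, the ubiquitin ligase that partners PARP9, had 27.4, 27.9 and 30.2 FPKM in the 3 dpi knockdown and 87.4, 88.8 and 78.9 FPKM in the 7 dpi knockdown. All 3 later libraries were well above all 3 earlier ones, and the mean went from 28.5 ± 1.49 to 85.0 ± 5.33 FPKM (SD, n = 3 each). Its log2 fold change was 1.57 (SE 0.11, limma adjusted p = 1.14e-06), with that of PARP14 the largest of the 10. PARP14 had 29.02, 29.4 and 32.2 FPKM at 3 dpi and 97.7, 95.0 and 77.6 FPKM at 7 dpi. Its replicate 3 at 7 dpi was the low one, yet it was more than 2-fold above the highest 3 dpi library, and the log2 fold change was 1.57 as well (SE 0.13, limma adjusted p = 4.52e-06).

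PARP10, a transferase of single ADP-ribose units encoded on chromosome 8, overlaps GRINA on the opposite strand by 3358 bases. GRINA had a mean of 204.1 FPKM over the 9 libraries, and the part of its reads in the PARP10 level was not tested. PARP10 had 33.9, 31.5 and 36.9 FPKM in the 3 dpi knockdown and 90.6, 86.6 and 84.0 FPKM in the 7 dpi knockdown. The later group was tight (coefficient of variation 3.86%), and the log2 fold change was 1.35 (SE 0.20, limma adjusted p = 2.27e-04). PARP12, a zinc finger member of the family, had 40.7, 40.8 and 43.7 FPKM at 3 dpi and 94.7, 95.6 and 96.7 FPKM at 7 dpi. Its coefficient of variation of 1.03% was the lowest of the 10 genes at 7 dpi, and its log2 fold change was 1.20 (SE 0.10, limma adjusted p = 4.62e-06).

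PARP9 rose least of the 8. It had 37.3, 41.6 and 41.8 FPKM in the 3 dpi knockdown and 56.7, 55.9 and 55.3 FPKM in the 7 dpi knockdown, so the groups did not overlap, and its log2 fold change was 0.48 (SE 0.097, 1.39-fold, limma adjusted p = 0.00209). Without sh-Ptbp1-3d replicate 1, its lowest library, the adjusted p of PARP9 was 0.0122 by limma, above the limit of 0.01.

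PML, the scaffold of the nuclear bodies, had 29.3, 30.6 and 31.1 FPKM in the 3 dpi knockdown and 67.4, 63.7 and 63.5 FPKM in the 7 dpi knockdown. The later libraries were all about 2-fold above the earlier ones, with a log2 fold change of 1.09 (SE 0.088, limma adjusted p = 3.20e-06). SP110, a bromodomain protein of the SP family, had 13.8, 19.5 and 18.6 FPKM at 3 dpi and 37.2, 41.3 and 43.7 FPKM at 7 dpi. The groups were far apart although SP110 varied most of the 8 in the 3 dpi knockdown (coefficient of variation 17.7%), and its log2 fold change was 1.25 (SE 0.17, limma adjusted p = 1.37e-04). SP100, the namesake of the family and a constant resident of the bodies, had 24.5, 28.5 and 30.1 FPKM at 3 dpi and 49.97, 50.9 and 48.6 FPKM at 7 dpi. It did not overlap between the times and stayed under the fold threshold (log2 fold change 0.85, SE 0.13, 1.80-fold, limma adjusted p = 3.29e-04).

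Of the constitutive pair, PARP1 was lower at 7 dpi and PARP2 differed little. PARP1, the most abundant PARP of the nucleus, had 68.8, 69.3 and 64.7 FPKM in the 3 dpi knockdown and 52.4, 54.4 and 46.1 FPKM in the 7 dpi knockdown. Every later library was below every earlier one, as in 27% of all genes, and PARP1 fell by 0.41 on the log2 scale (SE 0.080, limma adjusted p = 0.00151), a call by FDR alone that 15.5% of all genes shared. PARP2, its close relative, had 12.5, 12.2 and 12.4 FPKM at 3 dpi and 14.3, 14.5 and 14.9 FPKM at 7 dpi. The libraries of PARP2 did not overlap, but its log2 fold change of 0.23 missed the FDR of 0.01 (SE 0.072, 95% interval 0.073 to 0.39, limma adjusted p = 0.0204). That call moved with the processing: the adjusted p of PARP2 in limma ran from 0.00331 when FPKM were rescaled to equal library sums (TPM) to 0.135 under median-ratio scaling.

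**Figure D2:**
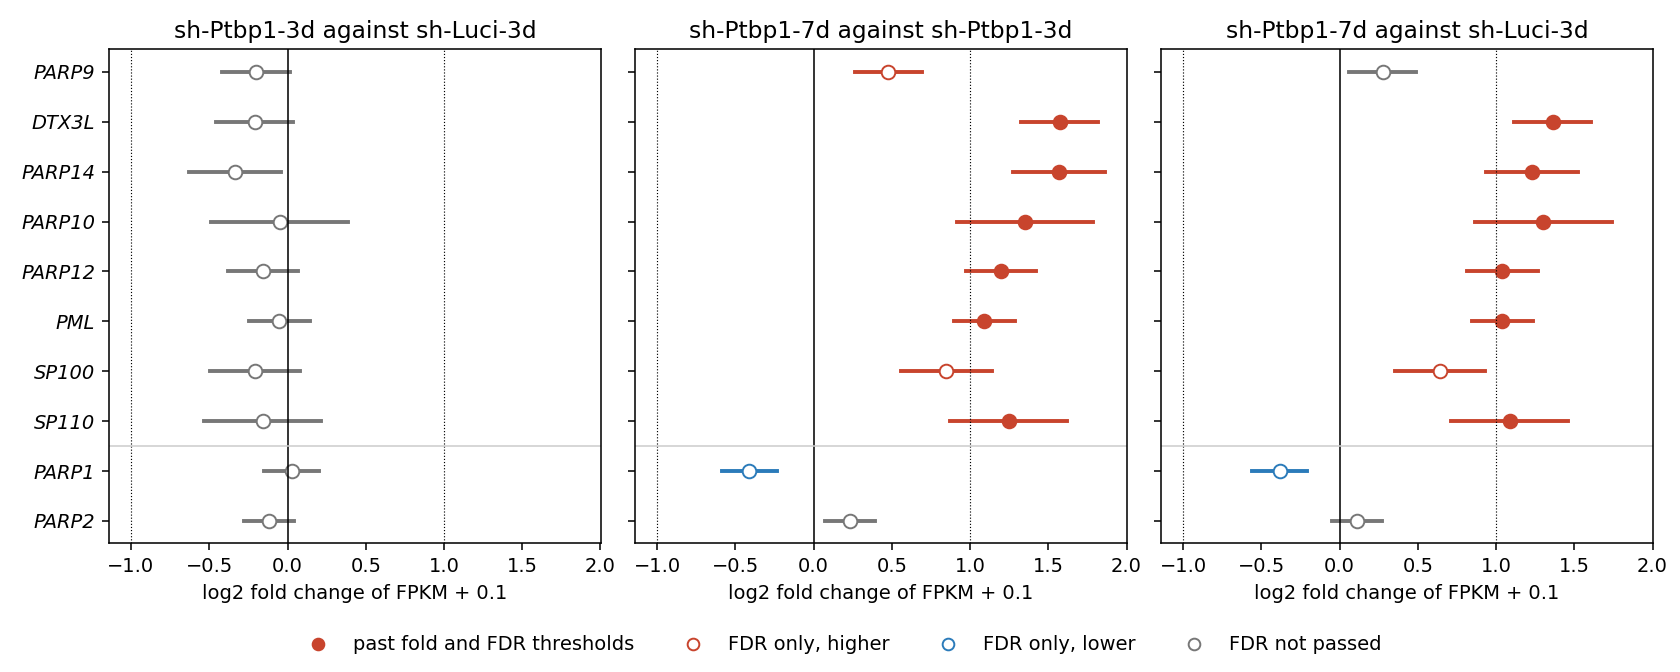
Log2 fold change of FPKM + 0.1 (horizontal axis) of the 10 genes (vertical axis) in the 3 comparisons, with 95% intervals from limma; dotted lines mark a fold of 2 in each direction, filled points passed fold and FDR, open coloured points FDR alone. All 10 are open and grey at 3 dpi, 6 are filled in each comparison with the 7 dpi knockdown, and PARP1 is the one point on the lower side with an FDR call.

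Set against the luciferase control, which differs from the 7 dpi knockdown in both hairpin and time, the same 6 genes passed fold and FDR (8.93% of all genes were called higher), 7 of the 8 passed the FDR alone (20.6% of all genes), and none of the 8 overlapped between the groups (32.8% of all genes were higher without overlap). This count of 6 depended on 1 control library and on scaling. Without sh-Luci-3d replicate 1, and likewise under median-ratio scaling, it was 3, with PARP12, PML and SP110 at log2 fold changes between 0.93 and 0.99 while still past the FDR. The comparison shares its 7 dpi knockdown libraries with the one between times, so the pair are not separate evidence.

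DTX3L had 31.2, 39.5 and 29.1 FPKM in the control and its log2 fold change was 1.36 (SE 0.11, limma adjusted p = 3.23e-06), and PARP14 had 1.23 (SE 0.13, limma adjusted p = 2.60e-05). PARP12 had 40.1, 54.6 and 45.9 FPKM in the controls and a log2 fold change of 1.04, and PARP10, with its wide control spread, 1.30 (SE 0.20). PML had 27.6, 34.2 and 33.1 FPKM in the controls and a log2 fold change of 1.04, and SP110 had 16.6, 24.8 and 16.9 FPKM and 1.09. In each of these 6 genes all 3 later libraries were above all 3 controls. SP100 had 26.4, 39.1 and 31.6 FPKM in the controls and a log2 fold change of 0.64 (SE 0.13, limma adjusted p = 0.00204), past the FDR alone.

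PARP9 was the gene that missed the FDR against the control. Its highest control library, at 53.9 FPKM, was just under its lowest library at 7 dpi, at 55.3 FPKM, and the log2 fold change of 0.27 (95% interval 0.059 to 0.49) had an adjusted p of 0.0367 by limma. Without that control library, sh-Luci-3d replicate 2, the adjusted p of PARP9 was 0.00396 by limma. PARP1 had 64.7, 65.3 and 68.9 FPKM in the controls and fell by 0.38 on the log2 scale to 7 dpi (limma adjusted p = 0.00230, FDR alone, with 15% of all genes called lower that way and 23.1% lower without overlap). With these 2 groups fitted alone, the adjusted p of PARP1 was 0.0102 by limma, just above the limit. PARP2 had 13.5, 13.2 and 13.7 FPKM in the controls, with a log2 fold change of 0.11 (95% interval -0.047 to 0.27, limma adjusted p = 0.218). All its 7 dpi libraries were nevertheless above all its controls, as in 32.8% of all genes.

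The order of the 10 levels differed between 3 and 7 dpi. In both 3 dpi groups PARP1 was the highest of the 10, at 66.3 ± 2.29 FPKM in the control and 67.6 ± 2.53 FPKM in the 3 dpi knockdown (SD, n = 3 each), and its libraries did not overlap those of the next gene, PARP12. In the control PARP12, PARP9, PARP14, PARP10, DTX3L, SP100 and PML followed, from 46.9 ± 7.28 down to 31.6 ± 3.51 FPKM, and each overlapped the next. At 7 dpi PARP12 (95.7 ± 0.985 FPKM), PARP14 (90.1 ± 10.9 FPKM), PARP10 (87.1 ± 3.36 FPKM) and DTX3L (85.0 ± 5.33 FPKM) were the 4 highest, and each overlapped its neighbour in that order. PML (64.9 ± 2.17 FPKM) and PARP9 (56.0 ± 0.710 FPKM) followed without overlap, and PARP1 (50.9 ± 4.32 FPKM) came only seventh, level with SP100 (49.8 ± 1.19 FPKM). SP110 (40.7 ± 3.27 FPKM) and PARP2 (14.6 ± 0.294 FPKM) were the ninth and the tenth gene, as in both 3 dpi groups.

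PARP9 and DTX3L, which share the ISRE letters printed above and whose proteins pair, had unequal ratios at the 2 times. The ratios within a library were added after the values of the genes had been seen. The ratio of PARP9 to DTX3L within a library was 1.37, 1.36 and 1.47 in the control, 1.36, 1.49 and 1.38 in the 3 dpi knockdown and 0.649, 0.630 and 0.700 in the 7 dpi knockdown. The 2 groups of 3 dpi overlapped, and the log2 difference from 3 to 7 dpi was -1.10, with DTX3L the less abundant of the pair in every 3 dpi library and the more abundant in every 7 dpi library. The ratio needs no scaling between libraries, since any factor common to a library cancels. The exact two-sided permutation test gave p = 0.1, the smallest that 3 against 3 libraries allow, and 0.138 after Benjamini-Hochberg adjustment over the 18 comparisons of 6 ratios.

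PARP14 to DTX3L behaved otherwise between the times. The ratio was 1.16 ± 0.0424 in the control, 1.06 ± 0.00709 in the 3 dpi knockdown and 1.06 ± 0.0684 in the 7 dpi knockdown (SD, n = 3 each). Between the times it moved by -0.0047 on the log2 scale (exact permutation p = 1.0). At 3 dpi the knockdown was below the control without overlap (log2 difference -0.126, exact permutation p = 0.1, adjusted 0.138). Among the nuclear body genes, the ratio of SP110 to SP100 was 0.561, 0.684 and 0.616 in the 3 dpi knockdown and 0.745, 0.811 and 0.899 in the 7 dpi knockdown, and that of PML to SP100 was 1.20, 1.08 and 1.03 and then 1.35, 1.25 and 1.31. Both pairs of groups were without overlap, and both had an exact permutation p of 0.1, again the floor of this design. PARP1 to PARP2 went from 5.46 ± 0.243 to 3.50 ± 0.351 (SD, n = 3 each, exact permutation p = 0.1). At 3 dpi that ratio was higher in the knockdown than in the control (log2 difference 0.149, exact permutation p = 0.1).

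**Figure D3:**
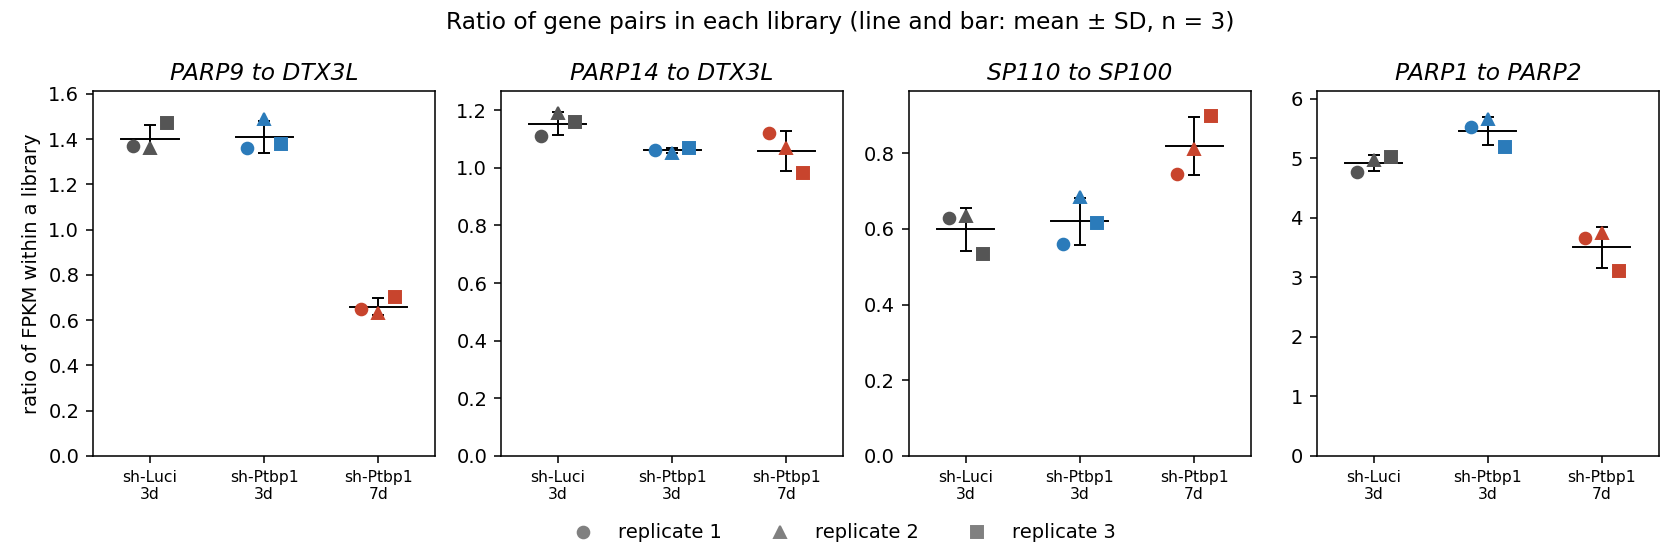
Ratio of FPKM of 4 gene pairs within each library (vertical axis, from 0), by group, with one symbol per replicate and the mean ± SD of 3 libraries in black. PARP9 to DTX3L drops from between 1.36 and 1.49 in the 6 libraries of 3 dpi to between 0.630 and 0.700 at 7 dpi, while PARP14 to DTX3L stays between 0.983 and 1.19 in all 9.

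Of 11 other PARP family genes listed, 9 were expressed enough to test, and none passed fold and FDR between 3 and 7 dpi in either direction (median log2 fold change 0.127). By FDR alone 4 were higher and 1 lower, named here after their values were seen, against 20.3% of all genes higher and 15.5% lower. ZC3HAV1, the zinc finger antiviral protein, which is itself linked to interferon, went from 22.6 to 34.4 FPKM (log2 fold change 0.60, limma adjusted p = 0.00123). PARP6 had 0.97, PARP3 0.70 and the tankyrase TNKS2 0.55 as log2 fold changes. PARP4, the vault particle PARP, was the one that fell (by 0.77 on the log2 scale, limma adjusted p = 4.01e-04). PARP8 and PARP15 were too low to test.

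Among genes that remove or read ADP-ribose, 13 of the 15 listed symbols were in the table (2 of them are older names of others) and 11 were tested. None passed fold and FDR, and 3 were higher and 3 lower by FDR alone (median 0.163), against 20.3% and 15.5% of all genes. MACROD1, which removes single ADP-ribose units, had the largest log2 fold change of this group, 0.76 (limma adjusted p = 1.98e-04), and CHD1L, a chromatin remodeller recruited by ADP-ribose chains, the lowest, -0.70 (limma adjusted p = 2.74e-05); both were chosen after their values were seen.

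The partners of PARP1 and PARP2 in break repair were all tested, 14 genes. None passed fold and FDR, none was higher by FDR alone and 4 were lower (median -0.193). Among all genes 20.3% were higher and 15.5% lower by FDR alone. The 4 were TIMELESS, LIG1, FEN1 and PCNA, also named after their values were seen, which serve replication as well as repair. HPF1, the factor that directs PARP1 and PARP2 to serine, stood at 15.6, 15.7 and 15.3 FPKM in the means of the control, the 3 dpi knockdown and the 7 dpi knockdown (log2 fold change between times -0.039, limma adjusted p = 0.804).

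Of the 4 other deltex ligases, relatives of DTX3L, 3 were tested and 1 passed fold and FDR, higher, against 8.31% of all genes. DTX4 had 0.0247, 0.0503 and 0.225 FPKM in the 3 dpi knockdown and 1.54, 1.51 and 1.03 FPKM in the 7 dpi knockdown, a low level throughout (log2 fold change 2.98 on the log2(FPKM + 0.1) scale, limma adjusted p = 7.98e-05). The median log2 fold change of the 3 was 0.565.

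Among 32 other nuclear body proteins and SUMO enzymes, all tested, 2 passed fold and FDR, both higher, and by FDR alone 7 were higher and 2 lower (median 0.199). These counts of higher genes are close to the shares of all genes, 8.31% by fold and FDR and 20.3% by FDR alone. ISG20, an interferon-induced exonuclease found in these bodies, had 1.09, 1.47 and 1.31 FPKM in the 3 dpi knockdown and 17.3, 18.1 and 14.7 FPKM in the 7 dpi knockdown (log2 fold change 3.60, limma adjusted p = 5.03e-06). HIRA, a histone chaperone that can gather at PML bodies, had 10.5, 9.67 and 10.3 FPKM and then 24.4, 21.0 and 22.7 FPKM (log2 fold change 1.15, limma adjusted p = 2.29e-06). In both genes the times were far apart. The core partners DAXX and ATRX had log2 fold changes of 0.088 and -0.17 and did not pass the FDR. SP140L, of the SP family as SP100 and SP110 are, had 0.97 (limma adjusted p = 3.07e-04) and passed the FDR alone.

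The last list held interferon genes, their receptors and the signalling factors downstream of them. Of its 22 genes 16 were tested, and 5 passed fold and FDR, all higher, against 8.31% of all genes. By FDR alone 9 were higher and 1, JAK1, was lower (median 0.600), against 20.3% of all genes higher and 15.5% lower. IRF1 had 9.27, 9.003 and 11.5 FPKM in the 3 dpi knockdown and 35.9, 39.9 and 37.8 FPKM in the 7 dpi knockdown (log2 fold change 1.93, limma adjusted p = 9.81e-07). STAT2, a subunit of ISGF3, had 36.9, 40.8 and 39.7 FPKM and then 115, 114 and 103 FPKM (log2 fold change 1.498, limma adjusted p = 2.96e-07). For both of these genes the groups were without overlap, and every control library was below every 7 dpi library.

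IFNB1, the gene of interferon beta, was listed at 0 in all 3 control libraries and in 2 of the 3 libraries of the 3 dpi knockdown, the third having 0.116 FPKM. In the 7 dpi knockdown it had 0.567, 0.294 and 0.762 FPKM, above every earlier library (limma adjusted p = 0.00138 against the 3 dpi knockdown). All of these levels are low. IFNE, another interferon gene of the list, named here after its values were seen, did not rise. It had means of 1.351, 1.025 and 0.977 FPKM in the control, the 3 dpi and the 7 dpi knockdown (limma adjusted p = 0.809 between times). IFNG, IFNK, IFNL2 and IFNL3 were listed at 0 in every library. At 3 dpi against the control none of the 6 lists had a gene past fold and FDR, and none had one past the FDR alone.

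Over the 9 libraries, the genes whose log2 values ran closest to the mean of the 8 interferon-linked genes, among 11330 genes whose mean reached 1 FPKM, were HERC5 (Pearson r = 0.9974), IFI44 (0.9967), IFIT1 (0.9955), IFIT3 (0.9954) and TLR3 (0.9940). IFIT1, for one, had means of 135, 114 and 442 FPKM in the control, the 3 dpi knockdown and the 7 dpi knockdown. For PARP1, INCENP (r = 0.9939), TIAM1 (0.9923), TLN1 (0.9892) and PIM1 (0.9878) were among the 5 nearest, all lower at 7 dpi. For PARP2 they were PTTG1IP (r = 0.9778), CLDN15 (0.9748), SELENOK (0.9716), RELL1 (0.9588) and DAP (0.9573). These r describe 9 libraries in 3 groups, which share their group means, and carry no test.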

How the data were processed

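RNA-seq was done on 9 libraries of U251 cells, in 3 groups that follow the labels. FPKM of each gene in each library were deposited by the authors, and the submitters' processing notes name HISAT2 and GRCh38; the counting program and annotation release are not given in the sources used here. The authors also deposited coordinates of the assembled loci, a table of another kind of value, used to find loci beside the members. FPKM sums were 367412 to 404922 per library. The values carry no whole-read steps, so depth is unknown and count tests were not used. Of all columns with values, none was left unused.

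Here log2(FPKM + 0.1) of 15551 entries, genes and assembled loci with a mean from 0.1 FPKM upwards, was fitted by limma 3.58.1 in R 4.3.3 (one model of the 3 groups, intensity trend, two-sided), with Benjamini-Hochberg adjustment over all entries tested. Fold changes are on that scale, which understates those of low genes. Calls needed a fold above 2 and an FDR below 0.01, or below 0.05 at 3 dpi. The code was tested on simulated data. Ratios were tested by exact permutation. Promoter windows came from RefSeq. Named genes were all 10 members and, from each other list, up to 4 called genes with the largest change between times; others are marked where named. A few genes that this rule or the lists cover are not reported here. The members and lists were chosen with earlier results of these data known. In all, 21 alternatives were run: pseudocounts, filters, scalings, the fit, thresholds and leaving out each library.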

Additional observations from a re-analysis of the deposited data

Results flagged for a closer look

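One result came from an entry that is neither a member nor in any list, though it was in the fit over all genes. An unnamed locus assembled from the reads, on chromosome 15 from 74049300 to 74054052 on the plus strand (GRCh38), begins 1488 bases past the annotated end of PML, on the same strand. The locus was picked because all its sh-Ptbp1-7d libraries were above all its sh-Luci-3d libraries, so that order is not a result. Of all entries in the fit, 32.8% were higher without overlap in that comparison. The locus had a mean of 0.969 FPKM in sh-Ptbp1-7d (1.51, 0.668 and 0.733 in the 3 libraries). It had 0.335, 0.291 and 0.0456 FPKM in sh-Luci-3d and, also below every sh-Ptbp1-7d library, 0.0857, 0.292 and 0.0545 FPKM in sh-Ptbp1-3d. Its log2 fold change between times was 2.17 (SE 0.50, limma adjusted p = 0.00432). Against sh-Luci-3d it was 1.79, with an adjusted p of 0.0123 by limma, above the limit of 0.01. All of these levels are low, and whether the locus is part of PML transcripts was not tested.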

How the results depend on the processing

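Between 3 and 7 dpi of the knockdown, 6 of the 8 interferon-linked genes were called higher in all 21 alternatives. Against sh-Luci-3d the 6 became 3 under median-ratio scaling, and leaving out single libraries gave 3 to 6. It was 3 without sh-Luci-3d replicate 1 and 5 without sh-Luci-3d replicate 3, where SP110 had 0.9996. At 3 dpi none was called in any alternative, and neither PARP1 nor PARP2 passed the fold threshold in any comparison. Signs turned only at 3 dpi: PARP1 was -0.022 after quantile normalization, PARP10 was 0.22 without sh-Luci-3d replicate 3 and 0.0043 without sh-Ptbp1-3d replicate 2, and without sh-Luci-3d replicate 2 PML was 0.0046 and SP110 0.031. Leaving out single libraries, these 3 ran from -0.29 to 0.22, from -0.15 to 0.0046 and from -0.26 to 0.031. Replicate numbers did not pair the libraries (correlations of same-numbered libraries between -0.032 and 0.051), and with a replicate block the 3 counts were 6, 6 and 0. Scaling moved the median of all genes between times from 0.0924 to 0.191 (TPM), 0.00962 (median-ratio) and -0.0103 (quantile); each of the 8 kept a log2 fold change of at least 0.39 (PARP9, median-ratio) in every alternative. Of the genes called against sh-Luci-3d, 1388 of 2271 were higher as deposited and 1077 of 2191 after quantile normalization; a pseudocount of 1 left 1255 calls between times in place of 2211. Since depth is unknown, no counting error can be set beside any level.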
